A study of Saccharomyces cerevisiae with 8 samples.

Results

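The genes described here encode the HAP transcription factors of budding yeast and 4 cytochrome genes that belong to their best-known targets. The 9 genes were taken by name: the regulators HAP1, HAP2, HAP3, HAP4 and HAP5, and the cytochrome genes CYC1, CYC7, CYT1 and CYB2. A transcript annotated under exactly that name was found for 8 of the 9, of 7272 annotated transcripts in all, and each of the 8 had a count row for both alleles and entered the tests with 6706 transcripts. HAP1 had no annotated transcript, so that its RNA was not measured, and it is described from genomic DNA.

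Hap1 is a zinc cluster activator that binds DNA and responds to heme, and thereby to oxygen. Hap2, Hap3 and Hap5 form the DNA-binding part of the CCAAT-binding complex, and Hap4 brings the activation domain to it. HAP4 expression is repressed by glucose and is the main point at which carbon source sets the activity of the complex. Together these factors drive respiratory genes such as cytochromes, the enzymes of the tricarboxylic acid cycle and heme synthesis.

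RNA was compared between pools of haploid spores and the diploid hybrid they descended from, a cross of the laboratory strain S96 with the wild isolate SK1. There were 2 spore pools and 2 hybrid cultures, replicates A and B of each, all grown in YPD, a rich glucose medium, and genomic DNA of the same 4 samples was available. S96 is isogenic to S288c apart from mating type, and the spores of a pool had been selected for one mating type, as stated in the study's methods. In the hybrid both alleles meet the same regulators in one nucleus, so that allelic differential expression (ADE) there measures the cis effect. In the pools each cell carries 1 allele, and a change of the allelic ratio from hybrid to pool was taken as the local trans effect.

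Read pairs specific to one strain numbered 52202725 and 52600018 on annotated transcripts in spore pools A and B, and 45297678 and 48141742 in hybrids A and B. As a check of the labels, 6 genes specific to cells of mating type a summed to 1263 and 873 CPM (counts scaled to equal library totals) in the pools, against 10.7 and 15.1 CPM in the hybrids, and 5 of the 6 were called higher in the pools. The 4 genes specific to mating type alpha summed to 31.6 and 25.3 CPM in the pools and to 27.7 and 29.9 CPM in the hybrids. Each library was sequenced on lanes 6, 7 and 8. Within a library the allelic ratios of lanes 6 and 7 correlated with a Spearman coefficient of 0.939 to 0.963 across 4884 to 5150 transcripts, but those of lanes 6 and 7 together correlated with lane 8 at only 0.242 to 0.468. Transcripts are not independent replicates, and these coefficients describe the lanes only. Lane 8 held 62.4% to 69.3% of the reads. The lanes were summed, since they are runs of the same sample, and member values are also given for lanes 6 and 7 alone and for lane 8 alone where they differ. What sets lane 8 apart is not given in the sources used here, and its part in the results was not tested.

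Sequences are shown first for the places where the parents differ or where a factor of this group could bind. They are from the RefSeq copy of the S288c assembly R64, 5′ to 3′ on the strand of the gene. HAP1 (YLR256W) lies on the plus strand at chrXII:646415-650923 of R64, a coding region of 4509 bases. The parents differ there by a Ty insertion. In R64 a Ty1 element of 5920 bases (chrXII:650824-656743, plus strand) starts inside the annotated coding region and supplies its last 100 bases. The last 150 bases of the annotated HAP1 coding region (chrXII:650774-650923) are printed with the bases of the element in capitals.
HAP1: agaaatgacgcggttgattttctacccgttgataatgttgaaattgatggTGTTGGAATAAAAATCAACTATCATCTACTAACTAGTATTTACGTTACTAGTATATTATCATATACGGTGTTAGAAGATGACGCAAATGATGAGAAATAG

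The deposited SNP table held 18 SNPs in the HAP1 coding region and none in the 400 bases before its start codon. No SNP was listed inside the element. The last SNP before it was 56 bases away and the next one 149 bases past its end, which left 6124 bp without a SNP.

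HAP5 (YOR358W, chrXV:1010161-1010889, plus strand) encodes the subunit that assembles with the Hap2 and Hap3 proteins. It is shown because it was the only one of the 8 tested genes with a called cis effect. It had 8 SNPs in the 400 bases before its start codon, whereas the other 8 genes had 0 to 6. Over 6001 genes of R64 the median was 2, and 3.8% had 8 or more. The stretch from 400 to 183 bases before the start codon (chrXV:1009761-1009978), which ends at the annotated transcript start, holds 4 of the 8, printed in capitals as the R64 base.
HAP5: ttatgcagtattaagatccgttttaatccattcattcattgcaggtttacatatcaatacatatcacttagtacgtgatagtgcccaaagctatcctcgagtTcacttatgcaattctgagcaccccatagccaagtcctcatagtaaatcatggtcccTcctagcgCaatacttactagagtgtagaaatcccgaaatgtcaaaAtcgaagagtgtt

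CYC1 (YJR048W, chrX:526335-526664, plus strand) encodes iso-1-cytochrome c, the main electron carrier between complexes III and IV, and its upstream region is the classical target of both Hap1 and the CCAAT-binding complex. The stretch from 400 to 101 bases before its start codon (chrX:525935-526234) carried a single SNP, in capitals.
CYC1: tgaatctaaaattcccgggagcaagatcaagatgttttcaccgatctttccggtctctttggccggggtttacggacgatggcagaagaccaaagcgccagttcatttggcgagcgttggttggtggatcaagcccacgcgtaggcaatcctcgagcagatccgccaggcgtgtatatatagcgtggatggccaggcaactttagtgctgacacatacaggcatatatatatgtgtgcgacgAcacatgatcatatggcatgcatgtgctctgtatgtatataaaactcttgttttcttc

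CYB2 (YML054C, chrXIII:165533-167308, minus strand) encodes flavocytochrome b2, the lactate dehydrogenase of the mitochondrial intermembrane space. It was the only cytochrome gene of the 4 with the letters CCAAT in the 400 bases before the start codon, and held them at both 188 and 133 bases before it. The stretch from 300 to 34 bases before the start codon (chrXIII:167342-167608) is printed with both matches in capitals.
CYB2: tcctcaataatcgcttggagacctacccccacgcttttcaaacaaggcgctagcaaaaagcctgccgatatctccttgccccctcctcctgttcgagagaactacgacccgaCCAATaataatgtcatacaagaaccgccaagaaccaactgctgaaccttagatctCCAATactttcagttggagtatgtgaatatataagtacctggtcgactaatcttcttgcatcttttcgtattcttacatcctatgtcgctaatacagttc

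Matches were counted on both strands in the 400 bases before the start codon of each gene. CCAAT, the core bound by the Hap2/3/4/5 complex, was found at 3 of the 9 genes (HAP3, HAP4 and CYB2) and at 52.8% of 6001 genes. CGGNNNTA, a half-site of Hap1, was found at HAP1, HAP4 and HAP5, 3 of the 9, and at 28.5% of all. No match of one motif overlapped a match of the other. At HAP4, whose transcript borders are uncertain, both lay inside the annotated 5′ part of the transcript rather than before it. The CGGNNNTA match of HAP5 also lay inside its annotated transcript. CYC1, CYC7, CYT1 and HAP2 had neither string of letters in this window. These are matches of letters and not binding sites, and a missing match says nothing about binding.

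The number of SNPs also set how many reads could be told apart. CYC1 had a single listed SNP in its transcript, 67 bases past the stop codon at chrX:526731, and none in the coding region. HAP3 had 2, HAP2 3, HAP4 5, CYB2 6, CYT1 10, CYC7 11 and HAP5 11, where coding transcripts had a median of 8. Only reads over positions where the genomes differ could be counted, and levels are compared between samples and never between these genes.

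The study asked how far feedback buffers regulatory variants that act in cis, for which the cis effect of each gene was needed first. Among the 8 tested genes 1 had a called cis effect, HAP5, by edgeR's quasi-likelihood test at a Benjamini-Hochberg adjusted p under 0.2 and a fold above 1.5. Of all transcripts 11.5% were called, 302 with SK1 higher and 469 with S96 higher. The median absolute effect of the 8 was 0.22 on the log2 scale, against 0.33 over all transcripts.

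HAP5 transcripts came mainly from the SK1 allele. The hybrids held 844 SK1 and 144 S96 reads in replicate A and 1354 SK1 and 341 S96 reads in replicate B. The SK1 share was 85.4% (exact binomial 95% interval 83.1% to 87.6%) in hybrid A and 79.9% (77.9% to 81.8%) in hybrid B. Such intervals reflect counting error alone, as PCR copies of one molecule are counted more than once. SK1 reads thus prevailed in both cultures. The fitted cis effect was 2.27 on the log2 scale (SE 0.37, n = 2, edgeR adjusted p = 0.000574), or 4.81-fold. It was called from lanes 6 and 7 alone (1.49, edgeR adjusted p = 0.0868) and from lane 8 alone (3.00, edgeR adjusted p = 0.00205), although the size differed by over 1.5 times between them. HAP5 shares 400 bp with the transcript CUT874 on the opposite strand. The RNA libraries were strand-specific, although the strand setting of the counter is not given in the sources used here, and only 165 to 596 read pairs per library were set aside as ambiguous.

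The same gene had a weaker allelic imbalance in the spores. Spore pool A held 1099 SK1 and 652 S96 reads and spore pool B 650 SK1 and 434 S96 reads. Corrected for allele frequency, log2 ratios of SK1 over S96 were 0.85 and 0.68 in the pools, against 2.55 and 1.99 in the hybrids, so that the groups did not overlap. SK1 counts corrected for depth and allele frequency averaged 816 ± 214 in the pools and 1193 ± 339 in the hybrids (SD, n = 2 each). S96 counts averaged 474 ± 86.0 in the pools and 262 ± 140 in the hybrids (SD, n = 2 each). The local trans effect was -1.50 (SE 0.50), opposite to the cis effect, and was not called (edgeR unadjusted p = 0.00885, adjusted p = 0.665). Without the correction for allele frequency it was -1.60 with an adjusted p of 0.188 in edgeR and was called. By lanes it was -0.51 in lanes 6 and 7 and -2.34 in lane 8, both not called, and in lanes 6 and 7 the SK1 share of pool A (70.4%) was not below that of hybrid B (70.1%). The ratio within the pools was 0.77 (edgeR adjusted p = 0.247) and was called when hybrid A was left out (edgeR adjusted p = 0.185).

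Of the 8 genes 0 had a called local trans effect by edgeR, 1 had an unadjusted p under 0.05 (HAP5), and DESeq2 called none of the 8 either (58 of 6706 transcripts). Over all transcripts 0.149% were called, 5 in each direction. For allelic ratios, corrected for allele frequency, that do not overlap between pools and hybrids the count was 2 of 8 (HAP5 and CYC1), where 32.9% of all transcripts did so. The uncorrected SK1 shares of CYC1 did overlap, at 49.9% and 48.9% in the pools and 49.6% and 50.5% in the hybrids.

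**Figure D1:**
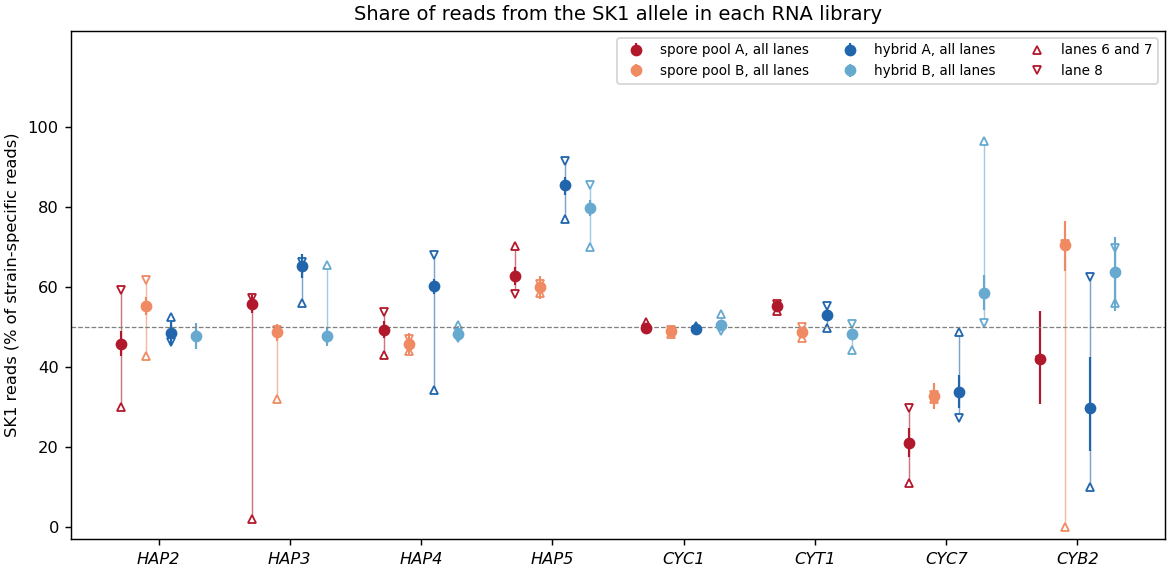
Share of strain-specific RNA reads that came from the SK1 allele (y axis, percent, not corrected for allele frequency) for the 8 measured genes, with spore pools in red and hybrids in blue. Filled circles are all lanes with exact binomial 95% intervals, and open triangles show lanes 6 and 7 (pointing up) and lane 8 (pointing down). HAP5 sits at 85.4% and 79.9% in the hybrids, above the 62.8% and 60.0% of the pools, and the lanes of HAP3, CYC7 and CYB2 lie far apart.

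The other genes of the CCAAT-binding complex, HAP2, HAP3 and HAP4, had no called allelic effect, and their SEs do not exclude a 1.5-fold difference between alleles. HAP2 (YGL237C, chrVII:52731-53528, minus strand) had SK1 shares of 45.8% and 55.2% in the pools, against 48.5% and 47.8% in the hybrids. Its cis effect was -0.11 (SE 0.36) and its local trans effect 0.18 (SE 0.51), neither past the spread. In lanes 6 and 7 its SK1 shares were 30.1% and 42.7% in pools A and B, against 59.4% and 61.9% in lane 8. The hybrids had 52.4% and 48.3% in lanes 6 and 7, against 46.4% and 47.2% in lane 8. The local trans effect of HAP2 was -0.80 in lanes 6 and 7 and 0.84 in lane 8, both not called. HAP3 (YBL021C, chrII:181660-182094, minus strand) encodes the other histone-fold subunit that pairs with Hap5. Its SK1 share was 55.9% and 48.7% in the pools and 65.3% and 47.7% in the hybrids, so that the 2 hybrids differed more from each other than the pools did. Lane 8 held 89.5% to 97.4% of HAP3 reads, more than its share of the libraries, and lanes 6 and 7 left 49 to 107 reads per library. In these lanes 1 of the 49 reads of spore pool A was SK1. The local trans effect of HAP3 (-0.30, SE 0.49) was -3.60 in lanes 6 and 7 and -0.26 in lane 8, both not called. HAP4 (YKL109W, chrXI:232227-233891, plus strand) had SK1 shares of 49.4% and 45.9% in the pools, against 60.2% and 48.4% in the hybrids. In hybrid A the share was 34.3% in lanes 6 and 7 and 68.0% in lane 8, and the cis effect of HAP4 (0.25, SE 0.28) was -0.45 in lanes 6 and 7 alone.

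Among the cytochrome genes CYC1 gave the most precise measurement. Spore pools A and B held 37891 and 45724 SK1 reads and 38102 and 47780 S96 reads, whereas hybrids A and B held 51944 and 63143 SK1 reads and 52851 and 61835 S96 reads. The alleles were nearly balanced in every library, with SK1 shares of 49.9% and 48.9% in the pools and 49.6% and 50.5% in the hybrids. The cis effect was 0.00 (SE 0.06, edgeR adjusted p = 0.99) and the local trans effect -0.16 (SE 0.08, edgeR adjusted p = 0.871). The ratio in the pools was -0.16 (SE 0.06) with an adjusted p of 0.137 in edgeR, past the threshold for p but not for fold. This value followed the correction for allele frequency, and was -0.04 without it and 0.02 with the DNA of each pool used for itself. The deposited table lists no SNP for these reads other than the one described above, and CYC1 overlaps SUT641 and UTR1 on the opposite strand.

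CYT1 (YOR065W, chrXV:447439-448368, plus strand) encodes cytochrome c1 of complex III. Its SK1 share was 55.2% and 48.8% in the pools and 53.0% and 48.2% in the hybrids, and replicate A was above replicate B in both groups. Its cis effect was 0.03 (SE 0.14) and its local trans effect 0.05 (SE 0.20). Both effects lay more than 2 SEs short of 1.5-fold. CYT1 shares 1104 bp of its transcript of 1704 bp with SUT777 on the opposite strand.

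CYC7 (YEL039C, chrV:79636-79977, minus strand) encodes iso-2-cytochrome c, the minor form that is favoured at low oxygen. In spore pools A and B it had 107 and 276 SK1 reads and 405 and 568 S96 reads. In hybrids A and B it had 186 and 295 SK1 reads and 364 and 208 S96 reads. S96 reads prevailed in both pools and in hybrid A, and SK1 reads in hybrid B. Pool ratios were -1.75 and -0.87 and hybrid ratios -0.97 and 0.50 on the log2 scale, which overlapped. The ratio in the pools was -1.30 (SE 0.60), with an unadjusted p of 0.045 and an adjusted p of 0.247 in edgeR, and was not called. It passed with DESeq2 (adjusted p = 0.169), without the correction for allele frequency (-1.48, edgeR adjusted p = 0.149), and when hybrid A (edgeR adjusted p = 0.169) or hybrid B (edgeR adjusted p = 0.158) was left out, with the ratio at -1.30. The cis effect was -0.23 (SE 0.60), and 2.01 from lanes 6 and 7 alone, where hybrid B held 81 SK1 and 3 S96 reads. CYC7 shares 36 bp with UTR2 on the opposite strand.

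CYB2 was close to the limit of measurement, as 76 and 224 reads in the pools and 64 and 113 in the hybrids carried its alleles. Its annotated transcript of 1800 bp overlaps SUT295 on the opposite strand over its whole length. The strand setting of the counter is not given in the sources used here. SK1 shares were 42.1% (30.9% to 54.0%) and 70.5% (64.1% to 76.4%) in pools A and B, against 29.7% (18.9% to 42.4%) and 63.7% (54.1% to 72.6%) in hybrids A and B. The replicates of each group differed by more than the groups did, and the SE of its cis effect (-0.20) was 1.59. In spore pool B 99.6% of its reads came from lane 8. A difference between alleles was not detectable at this depth. For the ratio within the pools 10.3% of all transcripts were called and 0 of the 8 genes were, with 3 at an unadjusted p under 0.05 by edgeR (HAP5, CYC1 and CYC7), while DESeq2 called HAP5 and CYC7 among 888 of 6706 transcripts.

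**Figure D2:**
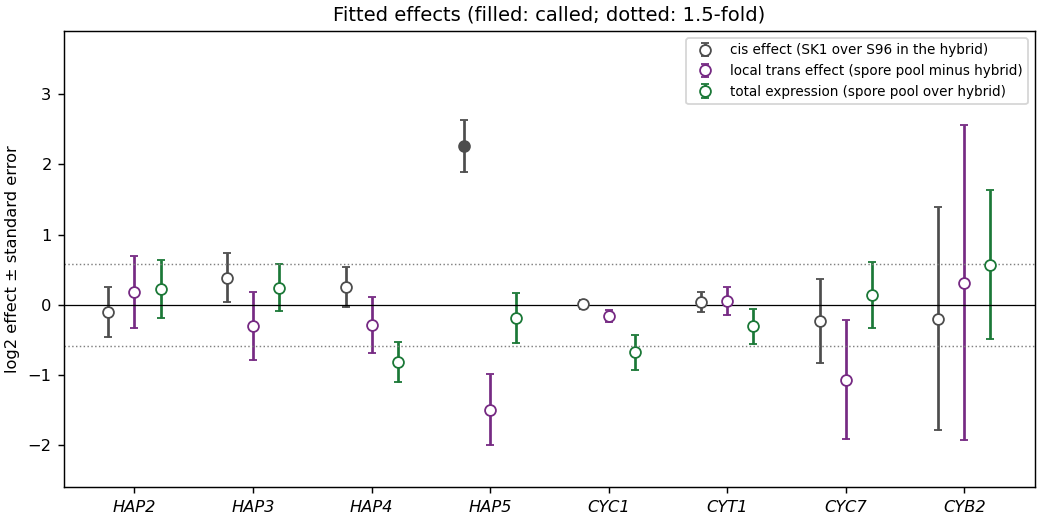
Fitted log2 effects with standard errors (y axis) of the 8 genes: the cis effect (SK1 over S96 in the hybrid, grey), the local trans effect (spore pool minus hybrid, purple) and total expression (spore pool over hybrid, green). Filled points were called and dotted lines mark 1.5-fold. The cis effect of HAP5 (2.27) is the only filled point, and its local trans effect (-1.50) has the opposite sign.

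Total expression, the sum of both alleles, was then compared between pools and hybrids. Of the 8 genes 0 passed in edgeR's quasi-likelihood test, where 1.13% of all transcripts did (72 higher and 4 lower in the pools), and 2 had an unadjusted p under 0.05 (HAP4 and CYC1), the same 2 that DESeq2 called, among 261 of 6706 transcripts. For 3 of the 8 genes (HAP4, CYC1 and CYT1) the pools lay below the hybrids without overlap, and 36.7% of all transcripts did not overlap between the groups. A lower level in a pool can mean fewer cells that express the gene or less RNA per cell, which cannot be told apart here. Pools and hybrids also differ in ploidy, mating type and growth history together, and these cannot be told apart either.

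HAP4 had 1976 and 1488 depth-corrected counts in spore pools A and B, against 3084 and 3041 in hybrids A and B. Both pools were thus below both hybrids. The difference was -0.82 on the log2 scale (SE 0.28), 0.566-fold, with an unadjusted p of 0.0128 and an adjusted p of 0.418 in edgeR. DESeq2 gave an adjusted p of 0.185. Without spore pool A the difference was -1.03 and without spore pool B -0.63. With 1 pool left, the spread between pools did not enter these fits. The difference was -0.13 in lanes 6 and 7 and -1.18 in lane 8, so that it was mainly a difference of lane 8.

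CYC1 had 64537 and 92182 depth-corrected counts in spore pools A and B, against 118315 and 132215 in hybrids A and B. The difference was -0.68 (SE 0.25), 0.626-fold, with an unadjusted p of 0.0177 and an adjusted p of 0.448 in edgeR and an adjusted p of 0.174 in DESeq2. Unlike HAP4 it was of similar size in lanes 6 and 7 (-0.62) and in lane 8 (-0.73). Without spore pool B it was -0.96, and without spore pool A it was -0.43, below 1.5-fold. The spread between pools did not enter these 2 fits either. CYT1 had 12491 and 8943 counts in the pools and 12854 and 13699 in the hybrids, a difference of -0.31 (SE 0.25, edgeR adjusted p = 0.851). Pool A was close to the hybrids and pool B lower.

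The remaining genes showed no difference beyond the spread of replicates. HAP2 averaged 1412 ± 724 in the pools and 1211 ± 409 in the hybrids, and HAP3 1789 ± 268 in the pools and 1512 ± 509 in the hybrids (SD, n = 2 each). HAP5 averaged 1278 ± 296 in the pools and 1454 ± 479 in the hybrids, CYC7 633 ± 281 in the pools and 577 ± 62.8 in the hybrids, and CYB2 143 ± 111 in the pools and 95.9 ± 33.4 in the hybrids (SD, n = 2 each). Their fitted differences ran from -0.19 (HAP5) to 0.57 (CYB2), with SEs of 0.34 to 1.06.

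**Figure D3:**
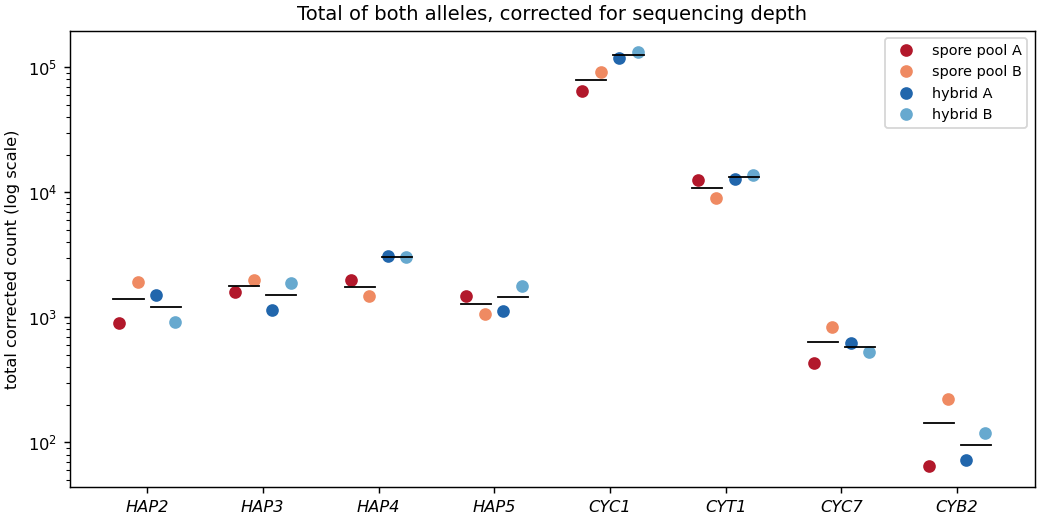
Total of SK1 and S96 reads per library after correction for sequencing depth (y axis, log scale) for the 8 genes, with spore pools in red on the left and hybrids in blue on the right of each gene. Points are libraries and black lines are means of 2. HAP4 and CYC1 lie lower in both pools (1976 and 1488, and 64537 and 92182) than in both hybrids (3084 and 3041, and 118315 and 132215).

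HAP1 was followed through its DNA. The study presumed that natural selection in the pools acted on HAP1 and shifted allele frequencies on chromosome XII. Selection was not tested here. In the coding region 2960 reads of spore pool A covered 18 SNPs and 50.5% of them were SK1 (exact binomial 95% interval 48.7% to 52.3%). Spore pool B had 280 reads on 8 SNPs and 51.1% (45.1% to 57.1%). The hybrids had 50.3% (48.3% to 52.2%) and 48.6% (46.2% to 51.1%). In the coding region the intervals of pools and hybrids overlapped. Over 14000 bp on either side the SK1 share was 50.6% and 50.5% in spore pools A and B, against 47.8% and 47.0% in hybrids A and B. In this wider window the interval of pool A was 49.9% to 51.2%. It did not overlap that of hybrid A (47.0% to 48.6%) or of hybrid B (46.1% to 48.0%). These intervals treat every read at every SNP as independent and reflect counting error alone. Around CYC1 those of hybrid A (44.8% to 47.4%) and hybrid B (48.2% to 51.2%) did not overlap each other. Missing overlap thus does not show a difference between pool and hybrids. Pool A exceeded the hybrid mean by 3.16 percentage points, and 69.6% of 7263 windows around transcripts had a smaller difference. The values per SNP were uneven at both sides of the element. At the last SNP of HAP1 the share was 19.8% of 91 reads in spore pool A, 33.9% of 56 in hybrid A and 31.3% of 48 in hybrid B, lower than in the coding region as a whole in all 3 libraries. Between 11378 and 11504 bases from the start codon, past the element, 4 SNPs of spore pool A, 6 of hybrid A and 9 of hybrid B were below 30%. R64 annotates long terminal repeats of Ty3 and Ty1 at chrXII:657022-657365 and chrXII:657449-657767. Both repeats end before these SNPs, and no SNP inside them was below 30% in the 3 libraries. Shares this low occurred in the pool and in both hybrids, and their values at single SNPs were not tested between the groups. Their cause was not tested.

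**Figure D4:**
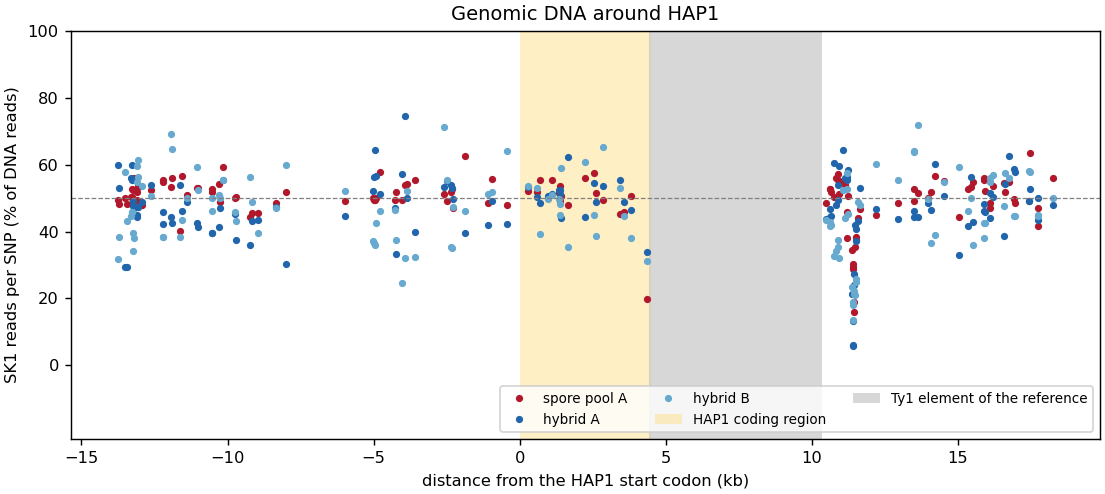
Share of genomic DNA reads from SK1 at each SNP with at least 10 reads (y axis, percent) against the distance from the HAP1 start codon in kb (x axis), for spore pool A and both hybrids. The HAP1 coding region is yellow and the Ty1 element of the reference grey. SNPs scatter around 50% in all 3 libraries, none lies in the element, and the last SNP before it is at 19.8% in the pool, against 33.9% and 31.3% in the hybrids.

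Around the other genes the difference of spore pool A from the hybrid mean ran from -3.35 points at HAP5 to 5.83 points at CYB2. Over 7263 windows around transcripts the median absolute difference was 1.69 points. The SK1 share at CYB2 was 53.7% of 22428 reads in spore pool A, against 49.0% and 46.7% in the hybrids, and 87.5% of windows around transcripts differed less. At HAP5 it was 46.3% of 19548 reads in spore pool A, against 49.0% and 50.2% in the hybrids. The DNA share of spore pool A was thus slightly below that of both hybrids, which does not show a difference, while 62.8% of its HAP5 RNA reads were SK1. In spore pool B the DNA share at HAP5 was 52.0% of 125 reads. Spore pool B was too shallow to use gene by gene. Around HAP3 its share was 32.3% of 365 reads on 12 SNPs and 11.9% in the window of 5000 bp, against 49.0% in spore pool A.

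Genes of the same pathways were taken from lists. Over all 6706 transcripts 11.5% were called for the cis effect, 0.149% for the local trans effect, 10.3% for the ratio in the pools and 1.13% for total expression, and 1317, 389, 1295 and 541 of them had an unadjusted p under 0.05 in these comparisons in this order. Of 7 targets of Hap1 (among them ROX1, the heme-dependent repressor of hypoxic genes, and ERG11 of sterol synthesis) all 7 were tested and 0 were called by edgeR in any of the 4 comparisons. At an unadjusted p under 0.05 there were 1 for the cis effect, 1 for the local trans effect, 2 for the ratio in the pools and 2 for total expression. Their summed levels were 1759 and 1692 CPM in the pools and 1760 and 1719 CPM in the hybrids. Of 16 targets of Hap2/3/4/5, 13 had a transcript of their own name (COX4, COX6 and SOD2 had none). CIT1, citrate synthase of the tricarboxylic acid cycle, had a cis effect of -1.11 (SE 0.20, edgeR adjusted p = 0.00171), with S96 higher, and a ratio of -0.83 in the pools (edgeR adjusted p = 0.0165). SDH2, a subunit of succinate dehydrogenase, had a ratio of -1.09 in the pools (SE 0.25, edgeR adjusted p = 0.00922), while its cis effect of -0.44 was not called. The median cis effect of the 13 was -0.05, against -0.03 over all transcripts, and 0 of the 13 were called by edgeR for total expression or for local trans effects, where 0 and 1 had an unadjusted p under 0.05.

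Of 8 enzymes of heme synthesis only HEM15, ferrochelatase, was called, for its ratio in the pools (-0.73, SE 0.18, edgeR adjusted p = 0.015). None of the 3 genes for heme attachment (CYC2, CYC3 and CYT2) and none of the 3 genes for lactate use (CYB2, DLD1 and JEN1) were called by edgeR in the 4 comparisons, and the only unadjusted p under 0.05 among them was that of CYT2 for its ratio in the pools (-0.52, edgeR adjusted p = 0.129). Among 4 co-regulators CYC8, which encodes the corepressor that works with Tup1, had a cis effect of -1.70 (SE 0.18, edgeR adjusted p = 4.64e-06) and a ratio of -1.94 in the pools (SE 0.18, edgeR adjusted p = 1.34e-06). The total expression of all 4 (CYC8, TUP1, ROX1 and MOT3) was estimated below 0 in the pools relative to the hybrids, with a median of -0.41, and 0 were called by edgeR, with 1 at an unadjusted p under 0.05 (MOT3). The median over all transcripts was 0.01 in the same comparison.

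The transcripts with the pattern most like that of 3 members were found by the distance of their 8 centred log2 values (4 libraries with 2 alleles each) among 4830 coding transcripts. Nearest to CYC1 were RRP3, UTP7 and MIG2 at 0.263, 0.265 and 0.27, where the median distance was 1.48. Nearest to HAP4 were RIX7, SNF1 and RAI1 at 0.449, 0.452 and 0.492 (median 1.64). Nearest to CYC7 were YBR241C, YCR051W and MET16 at 0.889, 0.912 and 0.946 (median 2.18). With 4 libraries these distances are a description and carry no test.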

How the data were processed

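Allele-specific RNA and genomic DNA were measured in 2 spore pools and 2 hybrids each. For RNA, the deposited table gives raw counts, per transcript, allele and lane, of read pairs from strand-specific libraries that match one strain only. The authors mapped to both genomes with GSNAP and counted with HTSeq 0.5.4p5 (version from the submitters' processing notes) pairs lying wholly inside transcripts extended by 50 bp; the strand setting of the counter is not given in the sources used here. The deposited DNA counts per SNP came from an earlier study and were lifted to R64 by the authors. Their second allele column was taken as SK1, because on chromosome III, where its median share was 72.4%, the RNA also moved to SK1. The build of the annotation is not named. On chromosome XI only 31.0% of coding transcripts contain their R64 coding region, against 92.4% or more elsewhere, so transcript borders of HAP4 are uncertain.

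Counts of 3 lanes were summed, 5 summary lines were left out (pairs on no transcript were 26.8% to 36.4%), and TMM size factors (0.886 to 1.18) were computed. Frequencies of SK1 from DNA of spore pool A were smoothed with locfit 1.5.9.12 (window 28000 bp, SNPs with at least 10 reads, the hybrid bias of -1.86 points subtracted) and used for both pools. The study's model instead takes an allele frequency for each gene in each sample. At the 8 transcripts the frequencies used here were 47.0% to 55.1%. edgeR 4.0.16 (R 4.3.3) fitted cis, local trans, ploidy and replicate factors to the 8 allele columns of transcripts with reads of both alleles whose corrected counts averaged 10 or more. Total expression was compared on the sum of alleles. An effect was called at an adjusted p under 0.2 and a fold above 1.5. The tests were checked on simulated counts. SEs are the effect over the square root of F. The study used DESeq2, here DESeq2 1.42.0 is an alternative. Lengths of SK1 transcripts were not used. The 2 samples of a group are biological replicates, as stated in the study's methods.

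The rule for named genes took the 9 members, every called gene of the pathway lists, and the 3 transcripts nearest to CYC1, CYC7 and HAP4 (mean count of at least 100, pseudocount 0.5). Other list genes that were not called are named only to say what a list holds, and CYT2 and MOT3 were named after their values were seen. Members and lists were chosen with earlier results of these data known. Lists for haploid cells and meiosis were also run: 3 of 3 tested haploid genes were called higher in the pools, and 4 meiosis genes summed to 8.16 and 9.43 CPM in the pools and 11.1 and 10.4 CPM in the hybrids. Scripts used Python 3.11.15, pandas 2.3.3, scipy 1.17.1 and matplotlib 3.10.9.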

Additional observations from a re-analysis of the deposited data

How the results depend on the processing

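Depth limits CYB2 and CYC7, and the single SNP of CYC1 limits what its counts stand for. The cis call of HAP5 held in each of the 14 alternatives run for it. Most of these could hardly move its estimate, which rests on the hybrids. It stayed at 2.27 with other size factors, count filters and allele frequencies, with DESeq2 and without either pool. The estimate moved in lanes 6 and 7 (1.49) and in lane 8 (3.00). With a replicate block, where it stands for replicate A as described below, it was 2.45. Without hybrid A it was 1.99 and without hybrid B 2.55. Counts of called transcripts moved by over 1.5 times as follows. With DESeq2 there were 58 local trans effects and 261 differences of total expression. With the DNA of each pool used for itself there were 367 cis effects and 0 local trans effects (247 at an unadjusted p under 0.05). Without the correction for allele frequency there were 171 local trans effects, and with a smoothing window of 14000 bp 16. With lane 8 only, an alternative chosen after seeing the data, there were 444 ratios in the pools and 40 differences of total expression. A replicate block let the allelic ratio differ between replicates A and B. Its cis effects and pool ratios are therefore those fitted for replicate A, not means adjusted for replicate. The block gave 53 local trans effects. Among member values it changed the call only of the ratio of CYC7 in the pools (-1.90, edgeR adjusted p = 0.121). Uncalled effects such as the cis effects of HAP3 (0.75), HAP4 (0.48), CYC7 (-0.82) and CYB2 (-1.15) moved by over 1.5 times, to these replicate A values. The letters A and B did not pair pools with hybrids (correlation of A minus B of 0.014 for totals and -0.004 for ratios). Leaving out each replicate gave 9 to 49 local trans effects, 410 to 817 ratios in the pools and 40 to 871 differences of total expression; a lone library was there assumed to vary like the others. The causes of these shifts were not tested.

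The 27 member effects counted next leave out the ratios in the pools of HAP2, HAP3, HAP4, CYB2 and CYT1. These had main values close to 0, from -0.04 to 0.11. No call of a member turned its direction, but 37 of 362 alternative values changed sign, all of effects that were not called. In lane 8 only these were the cis effects of CYB2 (0.97) and CYC1 (-0.052), the local trans effects of CYB2 (-0.80) and CYT1 (-0.033) and the total of CYC7 (-0.30). In lanes 6 and 7 only, also chosen after seeing the data, they were the cis effects of CYC7 (2.01), CYT1 (-0.17), HAP2 (0.02) and HAP4 (-0.45), the local trans effects of HAP2 (-0.80) and HAP4 (0.18) and the totals of CYB2 (-0.57) and HAP3 (-0.42). With the DNA of each pool they were the local trans effects of CYC1 (0.014), CYT1 (-0.004) and HAP3 (0.33) and the ratio of CYC1 in the pools (0.017). Leaving out each replicate, cis effects ran from -1.24 to 0.81 (CYB2), -0.025 to 0.03 (CYC1), -0.97 to 0.50 (CYC7), -0.10 to 0.17 (CYT1), -0.13 to 0.91 (HAP3) and -0.093 to 0.60 (HAP4), local trans effects from -0.70 to 1.35 (CYB2), -0.13 to 0.23 (CYT1), -0.10 to 0.45 (HAP2), -0.83 to 0.21 (HAP3) and -0.64 to 0.054 (HAP4), and totals from -0.57 to 1.21 (CYB2), -0.41 to 0.54 (CYC7), -0.43 to 0.68 (HAP2), -0.065 to 0.65 (HAP3) and -0.49 to 0.20 (HAP5). Of 72 alternative DNA shares 18 left the binomial interval of the main value, each with the window of 5000 bp.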
